A study of Mus musculus with 4 samples.

Results

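The 10 genes described here code for factors of the immediate early response. They are Fos, Fosb and Fosl2, Jun, Junb and Jund, Egr1 and Egr2, Atf3, and Ier2, and were taken from a list of symbols. All 10 had a row among the 11352 gene rows that could be used on plate 1. Group 2 innate lymphoid cells (ILC2) were index-sorted as single cells from the pancreas of C57BL6J mice into 384-well plates and sequenced by SORT-seq, which sequences RNA from its 3' end. Their KIKR protein fluoresces green until violet light converts it to red, so that colour marks the cells that were illuminated. Plate 1 held 12 photoconverted (KIKR-Red) cells, 151 non-photoconverted (KIKR-Green) cells and 221 empty wells. The labels used here give no feeding state, age, sex or animal for any cell, and nothing there says from how many mice the cells came. Plate 1 is 1 sample, each colour is represented by 1 sample, and no p-value was computed. Intervals are exact 95% binomial intervals (Clopper-Pearson) and cover the counting error of cells only. Beside a count of 0, the limit given is instead the share that 3 cells or wells would make.

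Immediate early genes are transcribed within minutes of a stimulus without the need for new protein. Fos and Jun proteins pair through leucine zippers to form AP-1, which binds DNA and, in lymphocytes, acts at cytokine genes together with NFAT and NF-kB. EGR proteins are zinc finger factors induced through the MAP kinase pathway. In ILC2, alarmins such as interleukin-33 activate these pathways, and the handling of tissue during cell isolation is also known to induce many of these transcripts.

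The filter of at least 500 genes and under 25% mitochondrial reads kept 8 photoconverted cells and 98 that were non-photoconverted. Photoconverted cells had more genes, with a median of 2748.5 against 1637 in non-photoconverted cells. Each photoconverted cell was therefore also set against the 5 non-photoconverted cells nearest in genes, which gave 29 distinct depth-matched cells. Photoconverted cell 4 (numbered by well) had 5129 genes, more than any non-photoconverted cell (4480 at most), so its matches were all shallower. A gene counted as detected at 16 reads or more. ILC2 markers were present: 8 of 8 photoconverted and 88 of 98 non-photoconverted cells had at least 3 of the 12 markers, among them Gata3 in 8 of 8 and 83.7%. Klrg1 was found in 8 of 8 photoconverted, 87.5% of depth-matched and 57.1% of all non-photoconverted cells, but Il7r in 4 of 8, 87.5% and 61.2%, Icos in 4 of 8, 70% and 42.9%, and Rora in 2 of 8, 5% and 6.12%. Of 11 ILC2 markers that passed a filter on frequency, 2 were at least 20 points higher and 2 lower in photoconverted than depth-matched cells, against 18.7% and 9.94% of all genes tested. Of the T cell markers, Cd3g was detected in 2 of 8, 7.5% and 9.18%, Cd3d in 1 of 8, 0% and 2.04%, and Cd3e in 0 of the 106 cells. Of the NK cell or ILC1 markers, Nkg7 was detected in 0 of 8, 10% and 4.08%. Prf1 and Il23r were detected in 0 cells. Other single genes of such lists differed by colour: Cst3, listed for myeloid cells, was 35 points higher and Kit, listed for mast cells, 30 points higher by share of cells in photoconverted than in depth-matched cells, and Ltb, listed for ILC3, differed by -35 points. Their part in the values given here was not tested. Levels are reads per 1000000 gene reads (CPM). The counts are of reads, not of molecular identifiers. Reads are amplified copies and so are not independent molecules. Since they come from the 3' end, CPM was not divided by gene length.

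Several of the genes are compact, while Atf3 spans 47744 and Fosl2 22042 bases. On mm10, Jun (chromosome 4, 95049034 to 95052222), Junb (chromosome 8, 84974484 to 84978718), Jund (chromosome 8, 70698949 to 70700616) and Ier2 (chromosome 8, 84661331 to 84662852) have 1 exon in the main GENCODE transcript. That is 4 of 10 genes, or 40%, against 0.861% of the 3020 protein-coding genes tested. Fos (chromosome 12, 85473890 to 85477273), Fosb (chromosome 7, 19302696 to 19310051), Fosl2 (chromosome 5, 32135801 to 32157842) and Atf3 (chromosome 1, 191170296 to 191218039) have 4 exons each. Egr2 (chromosome 10, 67535475 to 67542188) and Egr1 have 2. The median number of exons was 2 in the 10 genes and 9 over the genes tested, and the median span was 4698.5 and 24494 bases.

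AU-rich elements, which are known to shorten the life of an RNA, were found in the 3' untranslated regions of most of the genes. The heptamer TATTTAT was present in 6 of 10 (Fos, Fosb, Fosl2, Jun, Jund and Atf3), or 60%, against 27.2% of the genes tested, and the nonamer TTATTTATT in Fos and Fosl2, or 20% against 6.69%. Junb, Egr1, Egr2 and Ier2 lacked the heptamer, and Ier2 had 0 copies of the core ATTTA. Fos had 4 copies of ATTTA in 815 bases, Jun 4 in 1233 and Fosl2 8 in 4653. The stretch of 30 bases with most copies is shown for these genes, from GENCODE transcripts, with ATTTA in capitals:
Fos: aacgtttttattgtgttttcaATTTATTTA
Fosl2: agaagaaattgacATTTAttttattATTTA
Jun: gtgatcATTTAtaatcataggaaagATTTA

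RefSeq promoters (GRCm38.p6, 250 bases before to 50 after the start) were on hand for 8 of the 10 genes, but not for Egr1 and Ier2. The Jund promoter (chr8:70697489-70697788) lies wholly upstream of the GENCODE gene, which starts at 70698949. The half-site of cAMP response elements, TGACG on either strand, was in 5 of these 8 (Fos, Fosb, Junb, Egr2 and Atf3), against 20.8% of 32851 promoters. The CArG box of serum response factor was in 1 of 8 (Egr2), against 1.63% of promoters, and the AP-1 site TGANTCA in 0 of 8, against 7.81%. A gene was counted if any of its promoters held the match, while the shares are per promoter. Egr2 had several promoters, not all with TGACG, so counts and shares are not in the same unit. Fos held TGACG at -129 and at -66, Junb at -106 and Fosb at -60, counted from the start site as 0. These matches are letters in a window and say nothing of binding. The promoters of the FOS and JUN members with this match are printed because these genes are compared below, with TGACG in capitals, in the direction of transcription:
Fos, plus strand, chr12:85473640-85473939: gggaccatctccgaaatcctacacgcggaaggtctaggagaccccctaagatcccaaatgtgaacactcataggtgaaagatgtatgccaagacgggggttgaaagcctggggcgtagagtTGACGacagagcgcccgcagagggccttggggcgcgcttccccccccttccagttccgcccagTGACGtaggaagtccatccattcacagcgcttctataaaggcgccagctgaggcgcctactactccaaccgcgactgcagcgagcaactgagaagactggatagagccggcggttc
Fosb, minus strand, chr7:19309996-19310295: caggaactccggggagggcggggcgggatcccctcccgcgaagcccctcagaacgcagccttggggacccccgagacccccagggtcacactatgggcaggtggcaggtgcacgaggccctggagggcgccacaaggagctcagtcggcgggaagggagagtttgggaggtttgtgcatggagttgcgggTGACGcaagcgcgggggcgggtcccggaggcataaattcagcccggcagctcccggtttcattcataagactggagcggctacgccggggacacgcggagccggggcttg
Junb, minus strand, chr8:84978699-84978998: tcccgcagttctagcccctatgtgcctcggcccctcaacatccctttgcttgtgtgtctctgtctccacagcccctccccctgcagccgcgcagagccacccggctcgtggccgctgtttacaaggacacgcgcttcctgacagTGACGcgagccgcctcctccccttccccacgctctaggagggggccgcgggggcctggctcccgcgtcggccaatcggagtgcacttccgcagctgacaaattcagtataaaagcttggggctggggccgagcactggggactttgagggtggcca

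Junb was the most widespread of the JUN genes and of all 10. It ranked 19 among the 11352 genes by mean CPM and reached 16 reads in 8 of 8 photoconverted cells (63.1 to 100%), in 97.5% of depth-matched and in 92.9% of all non-photoconverted cells (85.8 to 97.1%). It had 358, 3988 and 6835 CPM (lowest, median and highest) in photoconverted cells, against 18, 4294 and 34929 in non-photoconverted cells, so the ranges overlapped throughout. In empty wells 7 of 221 (3.17%, 1.28 to 6.42%) passed 16 reads, the highest background of the 10 genes. Jun, the founding JUN gene, reached 16 reads in 6 of 8 photoconverted cells (34.9 to 96.8%), in 60% of depth-matched cells and in 46.9% of all non-photoconverted cells (36.8 to 57.3%), against 1.36% of empty wells. Its CPM was 7.68, 387 and 9626 in photoconverted cells and 0, 113 and 11206 in non-photoconverted cells. Jund, usually the least inducible JUN gene, was detected in 7 of 8 (47.3 to 99.7%), 85% and 65.3% (55 to 74.6%), and in 0 of 221 empty wells, which allows up to 1.36%. Its CPM was 42.4, 847 and 2901 in photoconverted cells and 0, 481 and 9386 in non-photoconverted cells. The ranges of both genes overlapped between the colours.

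Among the FOS genes, Fos was detected in a smaller share of photoconverted than of depth-matched cells at 16 reads, but in 5 points more of them with 1 read as detected. Its count was 5 of 8 photoconverted cells (24.5 to 91.5%), against 85% of depth-matched cells and 59.2% of all non-photoconverted cells (48.8 to 69%). In empty wells Fos had 0 of 221, with at most 3 reads, whereas Junb reached 322 reads and Jun 153 in an empty well. Its level was 0.596, 241 and 797 CPM in photoconverted cells and 0, 242 and 16958 CPM in non-photoconverted cells, so the medians lay close and only non-photoconverted cells reached above 1000 CPM. Photoconverted cells 1, 4 and 8 (numbered by well) were the low ones, at 9, 1 and 2 reads. Fosb, a close relative that can form AP-1 in place of Fos, was detected in 4 of 8 (15.7 to 84.3%), 52.5% and 32.7% (23.5 to 42.9%). It had 0, 56.5 and 2300 CPM in photoconverted cells and 0, 17.4 and 5081 CPM in non-photoconverted cells, again with full overlap. Fosl2, also called Fra-2, was detected in 7 of 8 (47.3 to 99.7%), 85% and 53.1% (42.7 to 63.2%), with 4.24, 516 and 3012 CPM in photoconverted and 0, 178 and 8598 CPM in non-photoconverted cells.

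The EGR genes split into a frequent and a rare one. Egr1, on chromosome 18, was seen in 5 of 8 photoconverted cells (24.5 to 91.5%), in 42.5% of depth-matched and in 33.7% of all non-photoconverted cells (24.4 to 43.9%). It had 0, 113 and 788 CPM in photoconverted cells and 0, 0.87 and 4236 CPM in non-photoconverted cells. At 1 read or more it was present in 7 of 8 photoconverted and 49 of 98 non-photoconverted cells, and the ranges overlapped. For Egr2 the photoconverted count was 0 of 8, with which a share of up to 37.5% is possible, and in 3 of 98 non-photoconverted cells (3.06%, 0.636 to 8.69%). Atf3, a stress-induced partner and brake of AP-1, was detected in 1 of 8, 10% and 4.08% (1.12 to 10.1%). That photoconverted cell, number 4, had 731 CPM of Atf3, and the highest non-photoconverted cell had 1352 CPM. Ier2, a nuclear protein of the same early response, was detected in 6 of 8 (34.9 to 96.8%), 75% and 54.1% (43.7 to 64.2%), with 0, 115 and 675 CPM in photoconverted cells and 0, 233 and 2461 CPM in non-photoconverted cells.

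**Figure D1:**
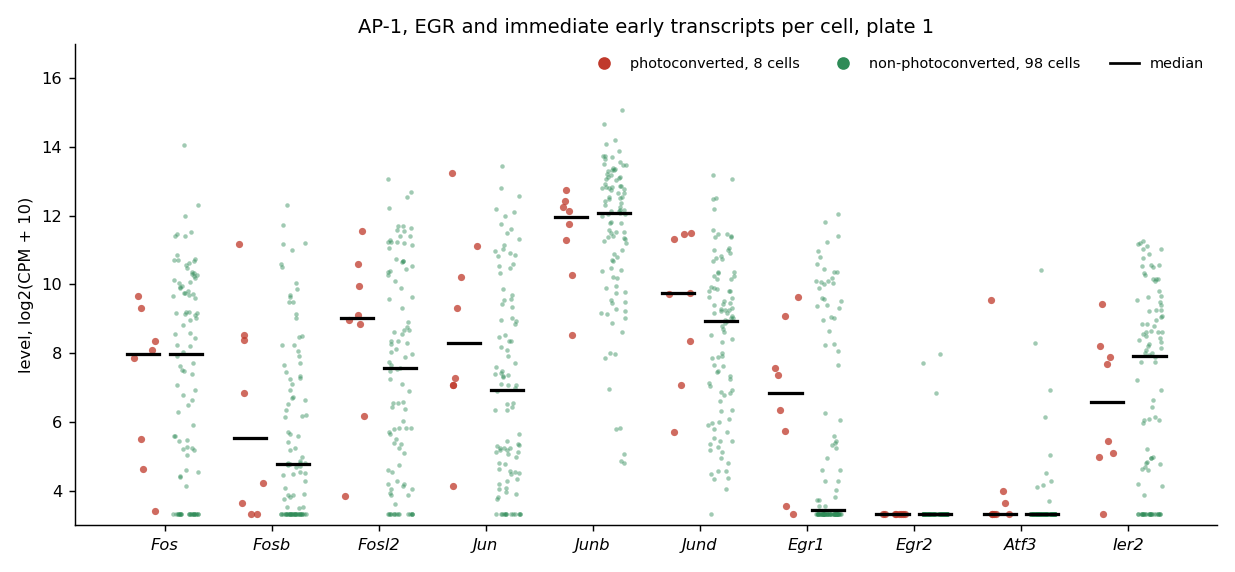
Level of each transcript in every plate 1 cell that passed the filter, as log2(CPM + 10), with photoconverted cells on the left of each pair, non-photoconverted cells on the right and black bars at the medians. The colours overlap for each gene detected in both, Junb is high in nearly all cells, and Egr1 spreads from 0 to 4236 CPM in non-photoconverted cells.

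By share of cells, 5 of the 8 genes compared differed by at most 2.5 points between photoconverted and depth-matched cells, and Jun, Egr1 and Fos differed by more. A size of 20 percentage points was used to count differences, without a test. Of the 3188 genes detected in at least 10% of the cells, 18.7% were higher by that much in photoconverted cells and 9.94% were lower. Egr2 and Atf3 did not pass this filter. Egr1 was 20 points higher, Fos was 22.5 points lower, and Jun was 15 points higher. Fosl2, Junb and Jund differed by 2.5 points, Fosb by -2.5 points and Ier2 by 0. Leaving out single photoconverted cells moved Fosl2 and Jund to between -5.71 and 14.3 points, Fosb to between -11.4 and 11.4, Ier2 to between -8.57 and 11.4, and Junb to between 0 and 2.86. Fos came to 11.4 points lower without photoconverted cell 1 or cell 4, 17.1 points lower without cell 8, and 31.4 points lower without cell 6. Egr1 came to 11.4 points higher without cell 2, 14.3 points without cell 1, 3, 6 or 7, 31.4 points without cell 4 and 34.3 points without cell 5. Jun came to 8.57 points higher without cell 6 and to 22.9 points higher without cell 2. The median difference of the 8 genes that passed was 2.5 points, and that of all genes tested was also 2.5 points.

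**Figure D2:**
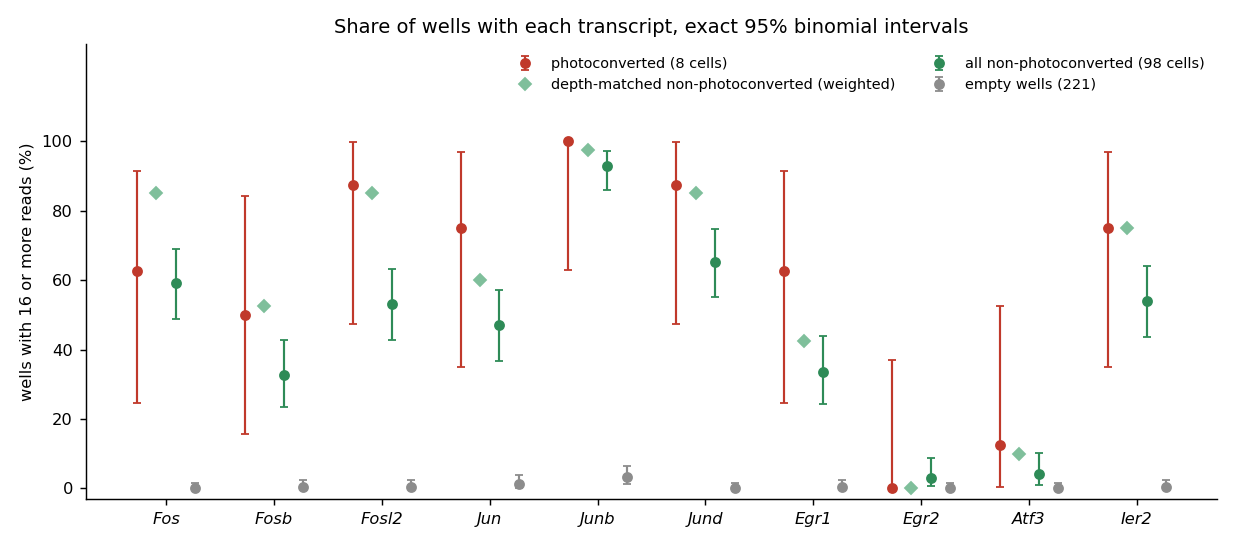
Share of wells with 16 or more reads of each transcript, with exact 95% binomial intervals for photoconverted cells, all non-photoconverted cells and empty wells; diamonds are depth-matched non-photoconverted cells, a weighted share without interval. The intervals of the photoconverted cells contain the depth-matched share of each gene, and empty wells lie at or below 3.17%.

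Mean levels ordered the genes differently from shares. Of the genes tested, 11.4% were at least 2-fold higher and 26.5% at least 2-fold lower in mean CPM in photoconverted than in depth-matched cells, after adding 10 CPM. Fos and Ier2 were at least 2-fold lower and 0 of the 8 genes were 2-fold higher. Fos averaged 285 ± 294 CPM (SD over 8 cells) in photoconverted cells and 678 in depth-matched cells, a log2 ratio of -1.22, and 6 of the 8 cells lay below the depth-matched median of 490 CPM. Without photoconverted cell 4 the log2 ratio was -0.95 and without cell 5 it was -1.71. Ier2 averaged 182 ± 227 CPM (SD over 8 cells) against 578, a log2 ratio of -1.61, which ran from -2.30 to -1.30 when single photoconverted cells were left out. Egr1, higher by share, was lower by mean, at 222 against 451 CPM, a log2 ratio of -0.99. It was -1.77 without cell 6, and -0.63 and -0.65 without cells 3 and 5.

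Some means rested on a single cell. Jun averaged 1758 CPM in photoconverted and 919 CPM in depth-matched cells, a log2 ratio of 0.93, but photoconverted cell 6 alone held 9626 CPM. Without that cell the log2 ratio of Jun was -0.60. The same cell held 2300 CPM of Fosb, and without it Fosb had a log2 ratio of -1.09, against 0.20 with it. Fosl2 stood at -0.08 and at -0.82 without cell 7, which held 3012 CPM. Jund stood at 0.49 and at 0.21 without cell 1, and Junb at -0.47 with a range of -0.70 to -0.31. Atf3, at 92.5 against 10.3 CPM, rested on photoconverted cell 4, without which its log2 ratio was -0.73.

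Scaling by spike-in RNA in place of gene reads moved the median log2 ratio of all genes by 0.38, to 0.11 from -0.27 with CPM. Relative to these medians, Fos stood at -1.19 per spike-in read and -0.96 by CPM, and Ier2 at -0.93 and -1.35. Jun stood at 1.03 and 1.19, Jund at 0.97 and 0.76, Fosb at 0.84 and 0.46, and Fosl2 at 0.79 and 0.18. Egr1 stood at -0.15 and -0.73, and Junb at -0.00 and -0.20. Before this median is taken off, Fosl2 and Junb were lower by CPM and higher per spike-in read, and the other members of the 8 kept their direction.

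Photoconverted cells held 3 to 8 of the 10 transcripts, with a median of 6.5 and a mean of 6.13 ± 1.81 (SD over 8 cells). Depth-matched cells had a mean of 5.93 (range 0 to 8), and all non-photoconverted cells 4.45 ± 2.25 (SD over 98 cells, range 0 to 8). At least 5 of the transcripts were detected in 6 of 8 photoconverted cells, in 77.5% of depth-matched cells and in 53 of 98 non-photoconverted cells. Empty wells held at most 1. When every cell was drawn down to 1000 gene reads, by the exact expected share and with 0 cells of either colour below that depth, photoconverted cells held an expected 3.09 of the transcripts at 1 read or more, depth-matched cells 3.19 and all non-photoconverted cells 2.79.

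**Figure D3:**
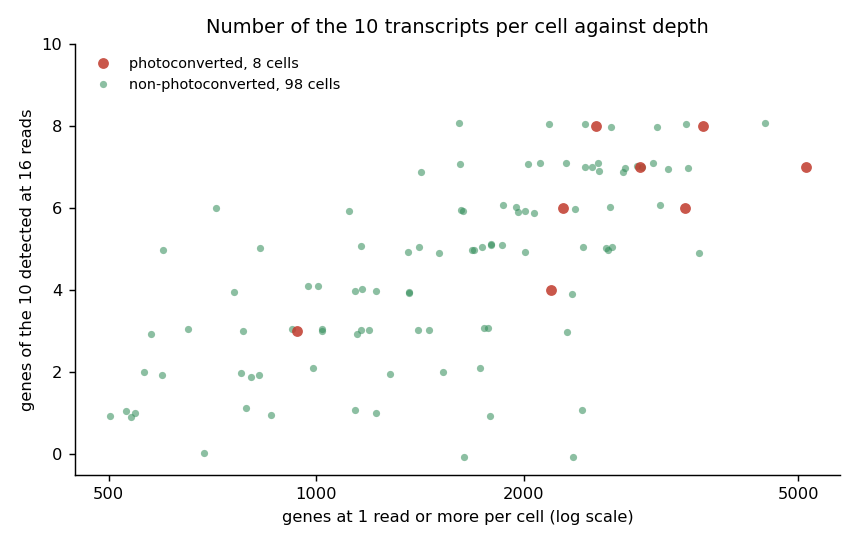
Number of the 10 transcripts detected at 16 reads (vertical axis) against genes at 1 read or more per cell (log scale), for photoconverted cells and non-photoconverted cells, which are spread slightly up and down. Photoconverted cells lie at 3 to 8, within the 0 to 8 of non-photoconverted cells. The photoconverted cell with 5129 genes has no non-photoconverted cell of like depth, the deepest having 4480. Of the 3 cells with 0, 2 have 1639 and 2359 genes.

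Depth moved the genes unequally within the non-photoconverted cells. These were split by genes per cell into groups of 24, 25, 25 and 24 cells, with medians of 769.5, 1357, 1946 and 2736 genes. Junb was detected in 87.5%, 96%, 92% and 95.8% of the cells of these groups, shares near 100% that leave little room to rise with depth. Jund was detected in 25%, 60%, 76% and 100%, and Fosl2 in 29.2%, 44%, 44% and 95.8%. Jun was detected in 0 of 24 cells of the shallowest group, which allows up to 12.5%, and then in 60%, 64% and 62.5%. Drawn down to 1000 reads, Jun still stood at 4.88% in the shallowest group, against 35.4%, 33.6% and 36.8% in the others. Fos at the same depth stood at 27.1%, 34.9%, 31.4% and 39.5%. The groups of cells were not chosen by Jun, but the depth group singled out here was chosen after its values were seen.

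**Figure D4:**
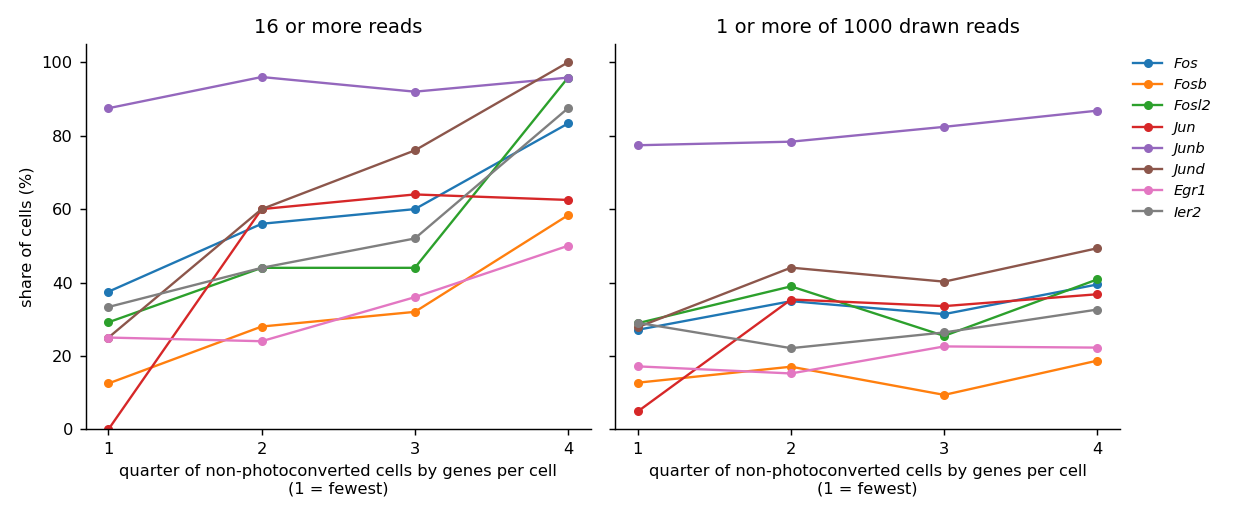
Share of non-photoconverted cells with each of the 8 frequent transcripts, in 4 groups of rising genes per cell, at 16 reads (left) and at 1 or more of 1000 drawn reads (right). Jun is at 0% in the first group on the left and at 4.88% on the right, whereas Junb stays at 87.5% or more on the left.

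The transcripts tended to be detected in the same cells. Among the 98 non-photoconverted cells the correlation of detection (phi, a description over cells that share a plate and differ in depth) was above 0 in 28 of 28 pairs of the 8 frequent genes, with a median of 0.25. Genes at large had positive values too. Of all 5067336 pairs of genes tested, 83.4% were above 0, with a median of 0.11. Of 137550 pairs of the 525 genes within the members' range of shares, 97.2% were above 0, with a median of 0.21. The count of 28 of 28 is therefore near that of genes of like share. In the 49 deeper cells the median was 0.28 for the 28 pairs, against 0.05 for all pairs and 0.07 for the pairs of 643 genes in the members' range. A phi of 0.3 or more was found for 13 of 28 pairs there, against 4.59% of all pairs and 6.05% of the pairs in that range. In all 98 cells it was 8 of 28, against 5.34% and 19.5%.

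Jund with Ier2 was the closest pair in the 49 deeper cells. All 34 cells with Ier2 had Jund, against 9 of 15 cells without Ier2 (phi 0.56). Ier2 with Fosb came next among the pairs without Junb, apart from Fos with Jund. Of the 34 cells with Ier2, 20 had Fosb, against 2 of 15 without it (phi 0.42). Of the 35 cells with Fos, 28 had Ier2 and 25 had Jun, against 6 and 6 of 14 cells without Fos. Fosl2 and Egr1 were detected together in 18 of the 34 cells with Fosl2, against 3 of 15 without it (phi 0.31). Fosl2 and Jun went the other way: Jun was detected in 20 of 34 cells with Fosl2 and in 11 of 15 without it (phi -0.14). In photoconverted cells, Fos and Jun were detected together in 4 of 8 cells and Fos and Egr1 in 4 of 8.

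Much of this rested on 3 deeper cells that lacked Junb. These cells had 1639, 2359 and 2428 genes, yet held 0, 0 and 1 of the 10 transcripts, the 1 being Jund. They had 6, 8 and 4 of the 12 ILC2 markers and 14.5%, 17.4% and 23.7% mitochondrial reads, against a median of 9.39% in non-photoconverted cells. The part of mitochondrial reads in this was not tested. Over the 21 pairs that do not involve Junb, 8 had a phi of 0.3 or more in the 49 deeper cells and 3 did so in the 46 deeper cells with Junb (Fos with Jund, Fosb with Ier2, and Jund with Ier2), against 4.97% of all pairs in those 46 cells. The median of the 21 pairs was 0.15 there, against 0.27 in the 49 cells and 0.05 for all pairs in the 46. In the 46 cells Fosl2 with Jun had a phi of -0.31.

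**Figure D5:**
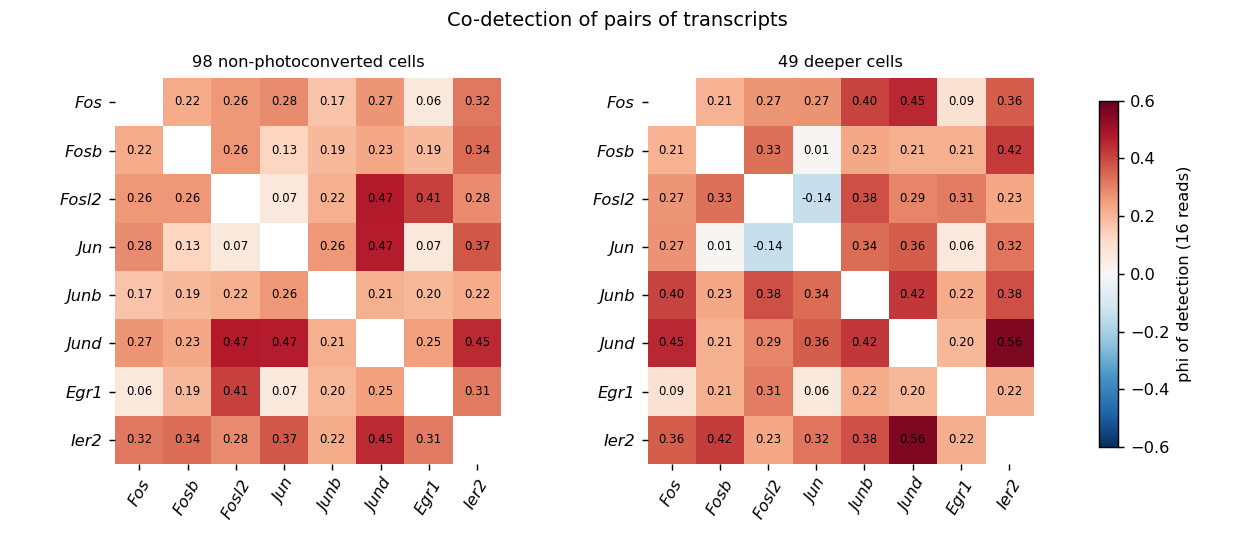
Correlation of detection at 16 reads (phi) for each pair of the 8 frequent transcripts, in all 98 non-photoconverted cells (left) and the 49 deeper cells (right). Jund with Ier2 has the highest value on the right, 0.56, and Fosl2 with Jun is below 0, at -0.14.

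Levels gave a partly different picture. In the 49 deeper cells the Spearman rho of log2(CPM + 10) was highest for Junb with Ier2, at 0.58, and for Fosl2 with Egr1, at 0.47, followed by Fos with Junb and Fosb with Junb, both at 0.42. Over all 98 non-photoconverted cells these pairs stood at 0.39, 0.44, 0.18 and 0.18. The 3 deeper cells that lacked Junb are included. Junb and Ier2 lie on chromosome 8 with 311631 bases between them, and Jund lies on it with 13960714 bases between it and Ier2. The part of position in these values was not tested. Jund with Ier2, the closest pair by detection in the deeper cells, had a rho of 0.08 there and 0.29 in all 98. Fosl2 with Jun had a rho of -0.19 in the deeper cells and -0.04 in all 98. Also below 0 in the deeper cells were Jun with Jund (-0.08), Fos with Fosl2 (-0.06) and Fosl2 with Ier2 (-0.05). No rho over other pairs of genes is given beside these values. These are descriptions over cells of 1 plate, with no p.

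The transcripts most like Junb in level over the 98 non-photoconverted cells were, of 1215 genes detected in at least 20% of them, Tnfaip3 (rho 0.49), an inhibitor of NF-kB signalling, Nfkbia (0.45), the NF-kB inhibitor, Nr4a1 (0.43), an immediate early nuclear receptor, Btg2 (0.42), an anti-proliferative gene, and Zfp36 (0.40), which binds AU-rich elements. In the 49 deeper cells the same genes had a rho of 0.39, 0.45, 0.56, 0.35 and 0.64, and the median over the 1215 genes was -0.01 in the 98 cells. For Fos the highest were Hsp90b1 (0.38), a chaperone, Neurl3 (0.36), Cd84 (0.35), Etnk1 (0.35) and Hnrnpa0 (0.34), against a median of 0.08, and these were 0.39, 0.41, 0.24, 0.34 and 0.13 in the deeper cells. The deeper cells are part of the 98 on which these genes were picked, so their values are not a separate check. Fos itself had a rho of 0.22 with genes per cell and Junb -0.03.

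The other immediate early and AP-1 family genes ran from rare to common. The listed AP-1 partners Batf, Jdp2, Maff, Mafg and Mafk were detected in 4.08 to 14.3% of all non-photoconverted cells. In photoconverted and depth-matched cells, Batf was detected in 1 of 8 and 30%, Maff in 1 of 8 and 25%, and Mafk in 0 of 8 and 12.5%. Jdp2 was detected in 2 of 8 and 7.5%, and Mafg in 2 of 8 and 17.5%. These partners were picked after their values were seen. Of 27 listed genes 22 had a row and 13 passed the filter, of which 1 was at least 20 points higher and 0 lower in photoconverted than depth-matched cells, with a median difference of 7.5 points. The shares over all genes tested were 18.7% higher and 9.94% lower, with a median of 2.5 points. The 4 genes of the list with the highest mean CPM were frequent. Zfp36 was detected in 7 of 8 photoconverted, 97.5% of depth-matched and 84.7% of all non-photoconverted cells, and Nr4a1 in 8 of 8, 92.5% and 77.6%. Zfp36l1, a relative of Zfp36, was detected in 8 of 8, 100% and 86.7%, and Btg2 in 8 of 8, 92.5% and 75.5%. Of 15 upstream signal genes that passed, 2 were higher and 1 was lower by 20 points, again against 18.7% and 9.94% of all genes. Map3k1, a kinase upstream of JNK, was detected in 0 of 8, 42.5% and 22.4%. Crem, a cAMP-responsive factor, was detected in 5 of 8, 55% and 34.7%, and Nfatc3, an NFAT factor, in 3 of 8, 45% and 28.6%. Elk3, a partner of serum response factor that was picked after its values were seen, was detected in 5 of 8, 5% and 10.2%.

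Of the heat shock genes, which tissue dissociation is known to induce together with Fos and Jun, 11 passed the filter. None of them differed by 20 points (0 higher and 0 lower in photoconverted cells), against 18.7% and 9.94% of all genes, and the median difference was -2.5 points, against 2.5 for all genes. Hsp90ab1, a chaperone, was detected in 7 of 8 photoconverted, 95% of depth-matched and 74.5% of all non-photoconverted cells, and Dnaja1, a co-chaperone, in 8 of 8, 92.5% and 73.5%. By mean CPM some did differ past 2-fold. Dnaja1 was higher in photoconverted cells, at 2984 against 1404 in depth-matched cells. Hspa1b, at 62.5 against 481, and Dnajb1, at 113 against 252, were lower and were picked after their values were seen. The shares of all genes past 2-fold were 11.4% higher and 26.5% lower. The summed level of the 12 genes was 1090 to 13601 CPM in photoconverted cells and 235 to 19670 CPM in non-photoconverted cells. Hspa1a, a strongly inducible member picked after its values were seen, was detected in 0 of 8, 10% and 5.1%. Their part in the levels of the 10 transcripts was not tested.

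Of the effector genes, 5 passed the filter. Of these, 4 (Il5, Cxcl2, Calca and Csf2, but not Areg) were at least 20 points higher in photoconverted than depth-matched cells. The share over all genes was 18.7%. The median difference was 32.5 points, against 2.5 points for all genes. Il13, which did not pass the filter and was picked after its values were seen, was detected in 0 of 8 photoconverted, 20% of depth-matched and 8.16% of all non-photoconverted cells. Il5, the cytokine that sustains eosinophils, was detected in 7 of 8, 47.5% and 23.5%, and Cxcl2, a neutrophil chemokine, in 6 of 8, 37.5% and 25.5%. Calca, the gene of calcitonin and CGRP, was detected in 6 of 8, 42.5% and 37.8%, and Areg, the gene of amphiregulin, in 7 of 8, 72.5% and 66.3%. Csf2 was detected in 6 of 8, 45% and 36.7%. The effector genes and the 10 transcripts were also set side by side among the 49 deeper non-photoconverted cells. The 16 cells with Il5 held a mean of 6.31 of the 10 transcripts and the 33 without it 5.15. For Areg the means were 6.05 in 38 cells with it and 3.73 in 11 without, and for Cxcl2 6.33 in 18 and 5.06 in 31. Gaps were smaller for Calca (5.91 and 5.19) and Csf2 (5.92 and 5.09). Such gaps were not particular to effector genes: Hspa5 had 6.08 and 4.91, and Il7r 5.72 and 4.8. Arg1 (5.43 and 5.67) and Thy1 (5.05 and 5.93) went the other way. Of these 6 genes, all but Calca were picked after their values were seen. The 3 cells without Junb lie in these counts, and depth within the 49 cells was not held equal. Across the plate, non-photoconverted cells of later wells held a mean of 4.76 of the transcripts and those of earlier wells 4.14, with medians of 1777 and 1528 genes.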

How the data were processed

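Single ILC2 of plate 1 were analysed from the deposited table of raw read counts per gene and well and from the sort record, which gives colour and red fluorescence intensity in arbitrary units per the file headers. The submitters' processing notes name mm10 and the tools STARsolo, STAR and edgeR, whose roles and versions are not given in the sources used here. Counts are reads, not molecular identifiers. Row names were checked on each plate: rows named mitochondrial held 5.63% of the reads of plate 1 and 0.011 to 0.0531% on plates 2 to 4, so only plate 1 was used for genes. Plate 1 held 52614294 reads. Gene reads per cell were 56539 to 1677643 in photoconverted and 17825 to 1274117 in non-photoconverted cells. Spike-in rows, 43.2% of reads, were left out of CPM.

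Cells needed 500 genes and under 25% mitochondrial reads. Detection was set at 16 reads because empty wells held low values (median 92 genes at 1 read, 3 at 16). The 29 depth-matched cells had the weight of 22.9 equal ones. Wells were filled by index sorting of single cells, so doublets were not called. The genes, lists and measures were chosen with earlier results of these data known, and phi and its limit of 0.3 were added after the files were seen. Named besides the 10 genes were the 5 genes most like Junb and Fos, up to 4 members of each list by mean CPM, and genes said to be picked later; some listed genes are not reported here. The scripts were tested on simulated data. Alternatives covered the detection limit, depth matching, drawing down, the cell filter, scaling, pseudocount and single photoconverted cells. Gene positions, exons and untranslated regions are from GENCODE M21 (mm10), with the principal transcript of each gene. Analysis used Python 3.11.15, numpy 2.4.6, pandas 2.3.3, scipy 1.17.1 and matplotlib 3.10.9.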

Additional observations from a re-analysis of the deposited data

How the results depend on the processing

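No paired analysis was possible because all values come from 1 plate and no colour has a second sample. The mean number of transcripts per cell differed between photoconverted and depth-matched cells by 0.2, and by -0.10 to 1.68 under the alternatives. The SD of 1.81 over photoconverted cells is that of single cells and does not measure the error of this difference. The difference ran from -0.06 to 0.54 when single photoconverted cells were left out. The median share difference, with Egr2 and Atf3 included, stayed between 0 and 19.1 points, the highest value being that against all non-photoconverted cells. With Egr2 and Atf3 included, the median log2 level ratio was -0.04, and -0.58 to 0.10 when single photoconverted cells were left out. Per spike-in read it was 0.90, without Egr2, which had no such value. For the 8 genes that passed the filter, the median log2 level ratio was -0.28 by CPM and 0.50 per spike-in read. Over all genes tested it was -0.27 and 0.11. The lower share of Fos turned to 5 points higher with 1 read as detected and to 3.32 points higher against all non-photoconverted cells, and was also 3.32 points higher when those were drawn down to 10000 reads. The higher share of Egr1 turned to -2.03 points when cells were drawn down to 1000 reads and set against all non-photoconverted cells, so that depth and comparison group both changed. The level of Atf3 turned to -0.73 without photoconverted cell 4 and was up to 2.64 without other single cells. The median gain in the share of 1 gene with another, 27.7 points over 56 ordered pairs, was 7.69 points over 49 pairs with 1 read as detected, and 20.8 to 27.2 points with 4 or 64 reads, in deeper cells and with 1000 genes or more. The cause of these changes was not tested. No such gain in share is given for other genes. By phi over all non-photoconverted cells, the median was 0.25 for pairs of the 8 genes and 0.21 for pairs of genes in their range of shares. The limits are 1 plate, 8 photoconverted cells, counts of reads and not of molecular identifiers, and no record of animals or feeding state. With 8 cells a share of 50% has an interval of 15.7 to 84.3%, and for each of the 8 genes the depth-matched share lies within the interval of the photoconverted share.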

Other observations

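Wells that the filter removed held few of the transcripts. Of the 53 non-photoconverted wells that failed it, 36 held 0 of the 10 transcripts at 16 reads, and the mean was 0.509 transcripts per well, against 0.0633 in empty wells. Junb was detected in 13.2% of them (5.48 to 25.3%) and Jund in 15.1% (6.75 to 27.6%). These wells had a median of 166 genes.

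Among the non-photoconverted cells that passed, the 49 with lower recorded red fluorescence held a mean of 4.90 of the 10 transcripts and the 49 with higher intensity 4, with medians of 1863 and 1363 genes per cell. Drawn down to 1000 reads, the expected numbers were 2.91 and 2.67.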
